A study of Mus musculus with 12 samples.

Results

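The comparison described here is that of Atp7b-/- mouse liver with an agonist of the liver X receptors (LXR) against Atp7b-/- mouse liver without it. Whole liver RNA came from 4 mice fed the agonist (KO_drug 1, 2, 3 and 4) and 4 mice not labelled as fed it (KO 2, 4, 5 and 6), all Atp7b-/-, of the mixed strain C57BL/6x129S6/SvEv and aged 20 wk. The labels give neither the name, dose and duration of the agonist nor the diet of the KO mice, the sex, the litter, or how the Atp7b allele was altered. Of the 24532 genes in the table, the 13386 with 10 or more counts in at least 4 of these 8 libraries were analysed. Another 5186 genes were counted in these libraries but below that limit, and 5960 had no count in them. The heterozygous controls of the study were not used.

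The liver X receptors, encoded by Nr1h3 and Nr1h2, are nuclear receptors that bind oxysterols and act on DNA together with a retinoid X receptor. In liver they are known to raise genes that export sterols into bile and onto lipoproteins, and to raise Srebf1, whose product SREBP-1c drives fatty acid synthesis. In macrophages they also repress inflammatory genes. Atp7b encodes the copper-transporting ATPase that loads copper onto ceruloplasmin and exports it into bile, and its loss causes Wilson disease, in which copper accumulates in liver.

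Library totals were 16535938 to 28329751 counts in KO and 18841560 to 20174103 in KO_drug, and the 8 livers carried the hepatocyte markers at a high level (summed 65004 to 99105 CPM, counts scaled to library size, in KO and 90854 to 111984 in KO_drug). The pancreas, muscle and skin markers were near 0, at 0.192 to 1.27 CPM in KO and 0 in KO_drug. The genes with a count numbered 16000 to 16430 per KO library and 14210 to 14486 per KO_drug library. The 100 most abundant genes took 32.9% to 37.0% of the counts in KO and 41.3% to 43.7% in KO_drug. KO 5 and KO 6 stood apart in sex-linked RNA. Xist, the RNA of the inactive X chromosome, was at 0, 0, 89.3 and 19.3 CPM in KO 2, 4, 5 and 6 and at 0.458 CPM or less in the KO_drug libraries. The Y-linked Ddx3y was at 97.1, 86.5, 0.414 and 69.7 CPM in KO 2, 4, 5 and 6 and at 92.3 to 120.4 CPM in KO_drug. KO 5 thus carried Xist with almost no Ddx3y, KO 6 carried both, and the other 6 libraries carried Ddx3y with little or no Xist. KO 2 and KO 4 stood apart in immune RNA, as given below. The count of a gene list against KO 2 and KO 4 alone, or against KO 5 and KO 6 alone, is therefore given beside it where it moved by over 1.5 times.

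Atp7b itself did not separate the groups. It was at 1.92, 1.83, 2.96 and 2.38 CPM in KO 2, 4, 5 and 6 and at 1.42, 3.76, 1.38 and 3.04 CPM in KO_drug 1 to 4 (chr8:21992783-22060074, mm10). The values overlapped, with a log2 difference 0.08, SE 0.37, adjusted p = 0.907 by edgeR (exact two-sided permutation p = 0.886), and the raw counts of 23 to 93 per library leave the sign of so small a difference dependent on the scaling. Both groups are Atp7b-/-, so its level checks no label here, and nothing states how the allele was altered or whether the counted reads lie in the altered part.

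Across all genes, more fell than rose, and the falls were larger. edgeR's quasi-likelihood test called 2458 of 13386 genes (18.4%) at an adjusted p under 0.05 (Benjamini-Hochberg), with 1094 higher (8.17%) and 1364 lower (10.2%) in KO_drug. The shares of 8.17% and 10.2% are the background for each count of a gene list below. The median log2 difference was 0.69 among the genes called higher and -1.41 among those called lower. Of the called genes, 1215 (9.08%) differed at least 2-fold, 269 of them higher and 946 lower, and 16 were at least 8-fold higher against 174 at least 8-fold lower. The 4 and 4 libraries did not overlap for 3221 genes (24.1%), 1455 higher (10.9%) and 1766 lower (13.2%). The genes called higher were more abundant in KO (median 43.2 CPM) than those called lower (9.77 CPM), beside 16.1 CPM for all genes.

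**Figure D1:**
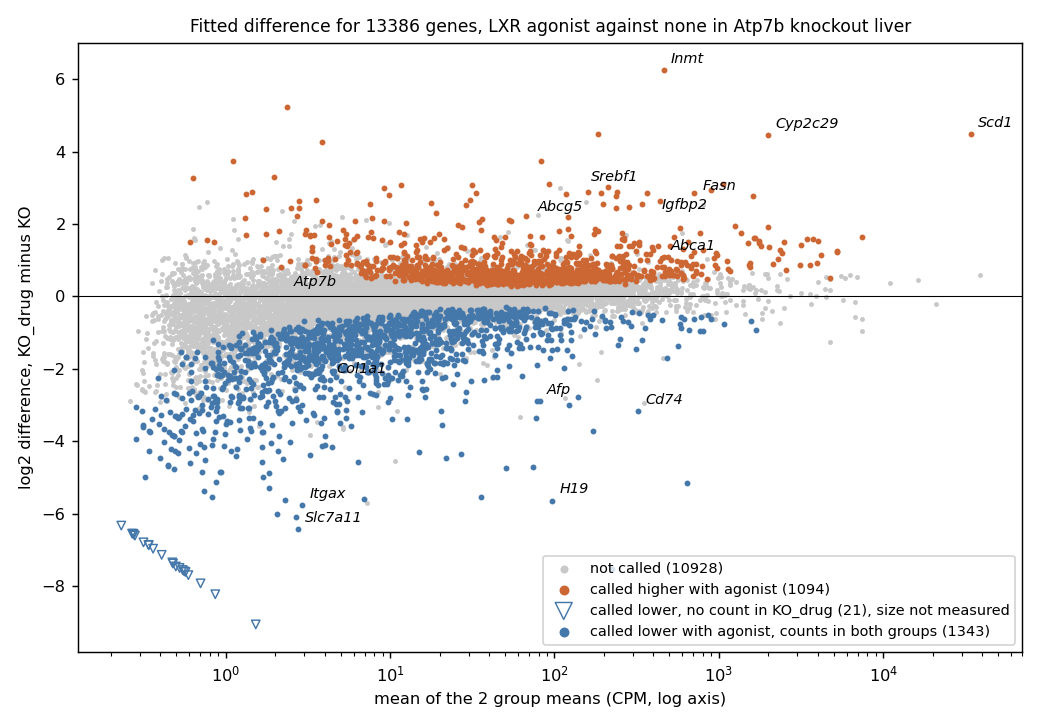
Fitted log2 difference (KO_drug minus KO, vertical) against the mean of both group means (CPM, log axis) for the 13386 genes, with called genes in colour. The falls reach lower than the rises reach high, and the open triangles are the 21 called genes with no count in any KO_drug library, whose fitted difference is not a measured size.

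The size of these counts rested on the scaling and on single libraries. Scaling by total counts instead of TMM shifted the median gene from -0.03 to -0.36 (log2) and turned the split into 393 higher (2.94%) and 4109 lower (30.7%). The count of 2458 became 1485 without KO 2, 1381 without KO 4, 1123 without KO_drug 3 and 1354 without KO_drug 4. Set against KO 2 and KO 4 alone it was 2271 (17.0% of the genes tested), with 892 higher (6.66%) and 1379 lower (10.3%). Set against KO 5 and KO 6 alone it was 424 (3.17%), with 203 higher (1.52%) and 221 lower (1.65%), of which 394 were among the 2458. The shares given here are the background for counts of gene lists under the same alternatives. On the first principal component, which held 52.7% of the variance, KO ran from 43.9 to 73.3 and KO_drug from -80.1 to -19.1, and KO_drug 1 was the closest of its group to the KO livers.

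Neither LXR gene passed the test. Nr1h3, the LXR of liver, was at 133, 132, 110.3 and 128 CPM in KO and at 113, 129, 111 and 118 CPM in KO_drug and the ranges overlapped (log2 difference -0.10, SE 0.11, adjusted p = 0.544). Nr1h2 was at 22.5 ± 1.86 CPM (SD, n = 4) in KO and 21.5 ± 4.93 CPM in KO_drug (adjusted p = 0.811). Of 20 further nuclear receptor genes tested, 3 rose, beside 8.17% higher over all genes. In the same list 1 fell, a smaller share than the 10.2% lower over all genes. Those that rose were Ppara (the receptor PPAR alpha for fatty acids, 1.96-fold, adjusted p = 0.0201), Nr1i2 (the xenobiotic receptor PXR, 1.70-fold, adjusted p = 0.0295) and Thrb (a thyroid hormone receptor, 1.60-fold, adjusted p = 0.0127). Nr4a1, an immediate-early receptor, fell 6.08-fold (adjusted p = 0.0256). Without KO 4 or without KO_drug 4, 1 receptor gene rose and none fell, and without KO 2 none fell. None of the 20 rose or fell against KO 5 and KO 6 alone.

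Among 20 LXR targets of sterol efflux, phospholipid remodelling and lipoproteins, 7 rose and none fell, and the list's median difference was 0.30 beside -0.03 for all genes. The rises came from the biliary sterol transporters, the cholesterol exporter of the cell surface, a phospholipid enzyme, a lipase, an apolipoprotein and a ubiquitin ligase. Abcg5 and Abcg8, whose products form the transporter that moves sterols into bile, moved together. Abcg5 was at 39.7, 43.5, 82.0 and 66.2 CPM in KO 2, 4, 5 and 6 and at 387, 85.2, 448 and 431 CPM in KO_drug 1 to 4. KO_drug 2 lay just above the highest KO library and the other 3 far above it (5.84-fold, log2 difference 2.55, SE 0.50, adjusted p = 0.0125). Abcg8 was at 66.1, 57.1, 118 and 103 CPM in KO and at 562, 126, 645 and 589.6 CPM in KO_drug, with the same order (5.58-fold, adjusted p = 0.0127). The spans of the 2 genes overlap head to head, and it is not stated whether the counting used the strand.

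Abca1, which loads cholesterol onto apolipoprotein A-I, was at 364, 245, 308 and 269.5 CPM in KO and at 653, 339.8, 662 and 855 CPM in KO_drug. KO_drug 2 lay within the KO range and the other 3 above it (2.11-fold, log2 difference 1.08, SE 0.26, adjusted p = 0.0208). Lpcat3, which puts polyunsaturated chains into phospholipids, was at 58.3, 49.8, 66.6 and 70.7 CPM in KO and at 159.9, 113, 153 and 140.2 CPM in KO_drug, without overlap (2.30-fold, log2 difference 1.20, SE 0.15, adjusted p = 0.0027). Lpl, lipoprotein lipase, rose 3.34-fold (adjusted p = 0.00625) and Apoc1 2.34-fold (adjusted p = 0.00426), both without overlap. Rnf145, a ubiquitin ligase of the sterol pathway that was singled out after its values were seen, rose 2.46-fold (adjusted p = 0.0306), with KO_drug 2 inside the KO range. Abcg1 and Mylip, also known targets, did not pass the test. Abcg1 was at 46.6, 43.4, 35.0 and 29.2 CPM in KO and 91.0, 25.5, 44.6 and 58.6 CPM in KO_drug (log2 difference 0.51, SE 0.34, adjusted p = 0.322), and Mylip, the ligase that degrades the LDL receptor, at 18.2, 30.5, 13.8 and 21.3 CPM and 24.7, 11.3, 26.7 and 35.8 CPM (log2 difference 0.24, SE 0.34, adjusted p = 0.667). In both, KO_drug 2 was the lowest of the 8 libraries. By total-count scaling 6 members of the list rose and 5 fell, and its median became -0.03, against KO 5 and KO 6 alone 3 rose, and against KO 2 and KO 4 alone 6 rose and 1 fell.

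**Figure D2:**
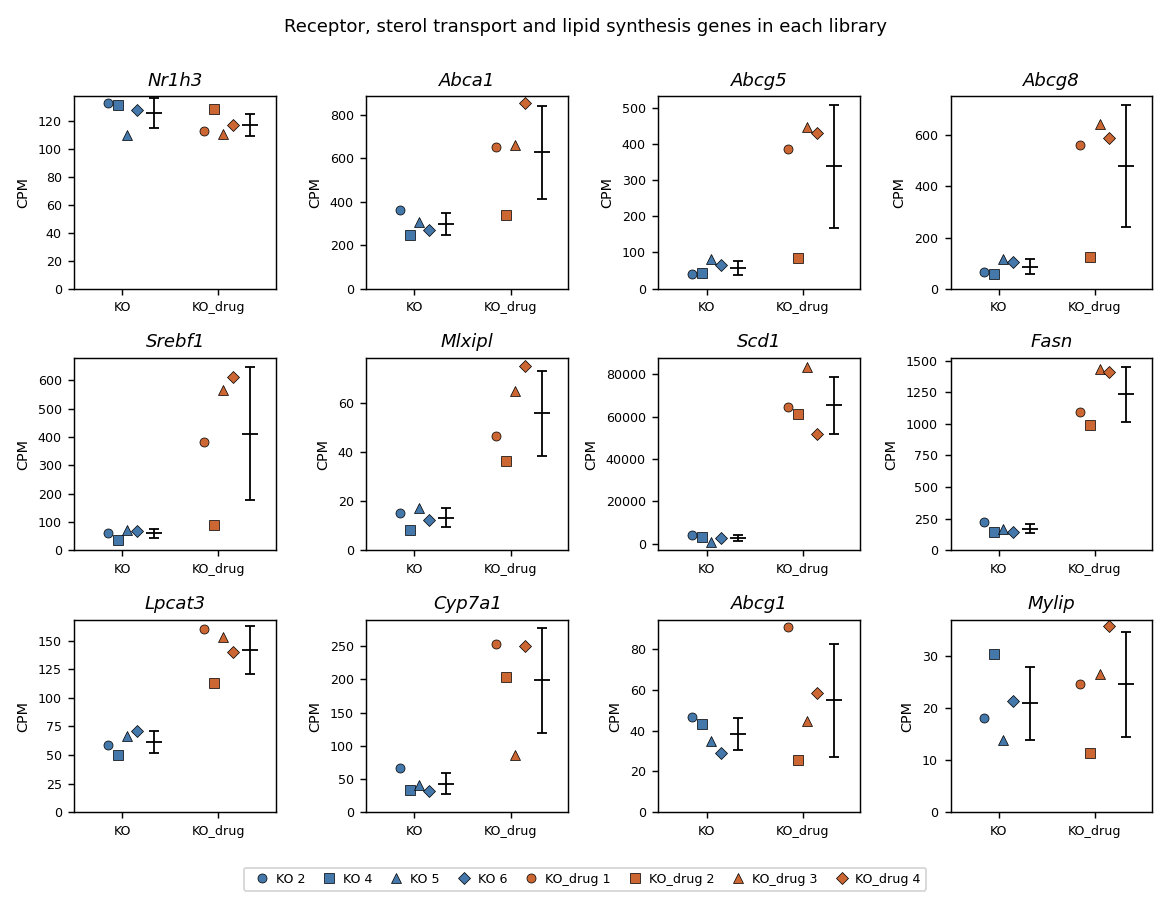
CPM of 12 genes in each library (points, 1 marker shape per library) with the mean and SD of each group (bars, n = 4). The 4 KO_drug libraries lie above all KO libraries for Abcg5, Abcg8, Srebf1, Mlxipl, Scd1, Fasn, Lpcat3 and Cyp7a1, with KO_drug 2 lowest for Abcg5, Abcg8 and Srebf1, while Nr1h3, Abcg1 and Mylip overlap.

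Fatty acid and triglyceride synthesis had the largest median rise of the 44 lists examined. Of its 28 members 18 rose and none fell, with a median log2 difference of 1.45. Without overlap between the groups 18 members were higher, beside 10.9% of all genes. Srebf1, which encodes SREBP-1, was at 61.1, 37.8, 73.7 and 67.0 CPM in KO 2, 4, 5 and 6 and at 383, 91.4, 564 and 611 CPM in KO_drug 1 to 4. KO_drug 2 lay far below the other 3 but above every KO library (6.88-fold, log2 difference 2.78, SE 0.53, adjusted p = 0.0117). Mlxipl, the carbohydrate response factor ChREBP, was at 15.3, 8.48, 17.2 and 12.3 CPM in KO and at 46.9, 36.5, 65.1 and 75.1 CPM in KO_drug (4.17-fold, log2 difference 2.06, SE 0.28, adjusted p = 0.0036).

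Scd1, the stearoyl-CoA desaturase that makes monounsaturated fatty acids, was among the largest rises in the data. It was at 4297, 3303, 1041 and 3025 CPM in KO and at 64418, 61212, 83417 and 51923 CPM in KO_drug, so that every KO_drug library was over 10 times the highest KO library (22.4-fold, log2 difference 4.48, SE 0.43, adjusted p = 0.00139, chr19:44394450-44407709). Scd2 rose 7.16-fold, Scd3 22.2-fold and Scd4 19.1-fold (adjusted p = 0.00916, 0.0301 and 0.00603), but these copies are near-identical in sequence, KO 5 had no count of Scd3 or Scd4, and reads may have been split between them. Fasn, fatty acid synthase, was at 226, 146, 168 and 148 CPM in KO and at 1095, 994, 1429 and 1409 CPM in KO_drug (7.17-fold, log2 difference 2.84, SE 0.20, adjusted p = 0.000319). Acacb, the acetyl-CoA carboxylase of the mitochondrial surface, was at 25.1, 39.6, 39.3 and 48.5 CPM in KO and 244, 338, 347 and 199.8 CPM in KO_drug (7.40-fold, adjusted p = 0.001).

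The enzymes around Fasn rose with it. They were picked out after their values were seen, from the same list. Acaca, which makes malonyl-CoA, rose 2.77-fold (adjusted p = 0.00245), Acss2, which makes acetyl-CoA from acetate, 6.21-fold (adjusted p = 0.00903) and Me1, a source of NADPH, 3.06-fold (adjusted p = 0.00423). The elongases Elovl6 and Elovl5 rose 3.50-fold and 2.80-fold (adjusted p = 0.0017 and 0.00426). Gpam, the first step of glycerolipid synthesis, rose 2.18-fold (adjusted p = 0.0027). The lipogenic factor Thrsp was at 63.2, 31.7, 26.3 and 65.9 CPM in KO and 219, 344, 435 and 516 CPM in KO_drug (8.09-fold, adjusted p = 0.00346), and the lipid droplet protein Pnpla3 at 2.41, 3.30, 2.04 and 2.15 CPM and 17.6, 4.77, 44.6 and 16.2 CPM (8.43-fold, adjusted p = 0.0122). As for Srebf1, KO_drug 2 had the lowest Pnpla3 of its group, but it did not have the lowest Thrsp, Acss2 or Acaca. Of the list, 17 members rose and 1 fell under total-count scaling, 16 rose against KO 2 and KO 4 alone, and 12 against KO 5 and KO 6 alone.

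SREBP proteins bind sterol elements in DNA, and promoters were searched for TCACNCCAC on both strands, and for the DR4 element of LXR, which was taken as any 2 of AGGTCA or AGTTCA or GGGTCA or GGTTCA in 1 direction with 4 bases between them. The window ran from 250 bases before to 50 bases after the start of RefSeq transcripts on GRCm38.p6. The sterol element was in the promoters of 1.44% of all 27025 genes with a promoter sequence, 1.47% of the 10662 tested genes with one, 26 of 878 genes called higher (2.96%) and 16 of 1057 called lower (1.51%). The DR4 element was in 26 of the 27025 genes, in 2 of the tested ones, and in no called gene with a promoter sequence, and Abca1, Abcg5 and Srebf1, which each have one, do not hold these letters in the window. Among the members of the 5 lipid lists, the sterol element was found in Mlxipl, which rose, and in Hmgcs1 of cholesterol synthesis, which did not pass the test. Outside those lists it was found in 8 of the genes named in the text, among them Ehhadh of fatty acid oxidation, which rose, and Ucp2, which fell. These 4 stretches are shown because they carry the match in genes on both sides of the comparison, 5′ to 3′ along the gene with 40 bases either side, and capitals mark the match.
Mlxipl: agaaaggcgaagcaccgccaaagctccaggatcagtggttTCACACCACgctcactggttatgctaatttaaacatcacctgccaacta
Hmgcs1: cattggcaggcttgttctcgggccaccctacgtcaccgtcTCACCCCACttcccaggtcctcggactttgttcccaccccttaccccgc
Ehhadh: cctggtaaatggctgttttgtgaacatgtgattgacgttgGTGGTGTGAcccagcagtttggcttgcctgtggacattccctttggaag
Ucp2: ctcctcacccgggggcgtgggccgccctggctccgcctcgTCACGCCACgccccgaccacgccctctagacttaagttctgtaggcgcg

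The stretches lie at chr5:135106715-135106803 (plus strand) for Mlxipl, chr13:119690174-119690262 (plus) for Hmgcs1, chr16:21787957-21788045 (minus) for Ehhadh and chr7:100493258-100493346 (plus) for Ucp2. The matches begin 136, 137, 171 and 60 bases before the transcript start, and the Ehhadh match is on the strand opposite to the gene. They are matches of letters, and no binding was measured.

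Storage and uptake of lipid moved less than synthesis. Of 19 lipid droplet and uptake genes 6 rose and none fell (median 0.72). Fabp5, a fatty acid binding protein of epidermis and macrophages, was at 10.2, 14.6, 9.44 and 12.5 CPM in KO and 100.5, 231, 221 and 67.5 CPM in KO_drug (13.3-fold, log2 difference 3.73, SE 0.42, adjusted p = 0.0027). Fitm1 and Fitm2, which help form lipid droplets, rose 3.56-fold and 1.64-fold (adjusted p = 0.00467 and 0.00988), and the fatty acid receptor Cd36 1.82-fold (adjusted p = 0.0134). Cidec, which enlarges droplets, was at 5.10, 45.2, 15.2 and 28.8 CPM in KO and 64.2, 88.1, 53.9 and 118 CPM in KO_drug, without overlap, but its adjusted p was 0.0644. Of 17 apolipoprotein and lipoprotein assembly genes 2 rose (11.8%, beside 8.17% of all genes), among them Apoa2, an apolipoprotein of HDL (2.23-fold, adjusted p = 0.00492). Apoe, itself a known LXR target, was at 11539, 10856, 16352 and 16587 CPM in KO and 20135, 16972, 20228 and 17818 CPM in KO_drug and did not pass (log2 difference 0.44, SE 0.20, adjusted p = 0.152). Under total-count scaling 2 of the 17 rose and 3 fell, with a median of -0.13, and 3 of the lipid droplet genes rose, as 3 did against KO 5 and KO 6 alone.

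Few sterol synthesis genes passed the test, though most had a positive fitted difference. Of 26 cholesterol synthesis and uptake genes 4 rose (15.4%, beside 8.17% of all genes) and none fell. The fitted difference was positive in 23 of the 26 (median 0.53). Insig1, the sterol-sensing brake on SREBP processing, rose 2.24-fold (adjusted p = 0.00642), and the enzymes Pmvk and Tm7sf2 rose 3.09-fold and 2.13-fold (adjusted p = 0.00731 and 0.00903). Insig2 was at 264, 452, 222 and 326 CPM in KO and 661, 361, 874 and 770.1 CPM in KO_drug and rose 2.11-fold (adjusted p = 0.0354), with KO_drug 2 inside the KO range. Hmgcs1, the synthase that feeds the pathway, was at 343, 219, 251 and 251 CPM in KO and 185, 836, 239 and 98.7 CPM in KO_drug (log2 difference 0.35, SE 0.58, adjusted p = 0.708). KO_drug 2 was the highest of the 8 libraries for Hmgcs1 and KO_drug 4 the lowest. The mean log2 CPM of the whole list was 6.58, 5.99, 6.04 and 6.44 in KO and 6.54, 7.55, 6.67 and 5.97 in KO_drug 1 to 4, again highest in KO_drug 2, the library with the lowest Srebf1, Abcg5 and Abca1 of its group. The list had 2 rises against KO 5 and KO 6 alone.

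Genes of bile acid synthesis and transport rose in part. Of 25 listed genes 24 were tested, 9 rose and none fell (median 0.63). Cyp7a1, the rate-limiting enzyme of bile acid synthesis, was at 66.0, 34.1, 40.4 and 31.4 CPM in KO and 253, 204, 85.7 and 251 CPM in KO_drug. All 4 KO_drug libraries were above all KO libraries, with KO_drug 3 the lowest of them (4.61-fold, log2 difference 2.21, SE 0.37, adjusted p = 0.00826). Cyp27a1 of the alternative pathway rose 2.26-fold (adjusted p = 0.00296), and Abcb11, the bile salt export pump, 1.95-fold (adjusted p = 0.00492). Slc10a1, which takes bile acids up from blood, was at 93.9, 52.2, 144 and 117 CPM in KO and 139, 383, 210.0 and 173 CPM in KO_drug and did not pass (2.22-fold, adjusted p = 0.062). Without KO_drug 3, 5 of the list rose, and 4 against KO 5 and KO 6 alone.

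Fatty acid oxidation rose alongside synthesis, led by peroxisomal enzymes. Of 29 genes of fatty acid oxidation and PPAR alpha targets 13 rose and 1 fell (median 0.67). Acaa1b, a peroxisomal thiolase, was at 174, 268, 239 and 206 CPM in KO and 1849, 1449, 2042 and 2215 CPM in KO_drug (8.52-fold, log2 difference 3.09, SE 0.20, adjusted p = 0.000185). It separated the groups fully, as did Ehhadh, a bifunctional enzyme of peroxisomal oxidation, at 192, 602, 514 and 344 CPM in KO and 3090.2, 1443, 3677 and 3045 CPM in KO_drug (6.81-fold, adjusted p = 0.00478). Acaa1a rose 2.095-fold (adjusted p = 0.00296) and Fabp1, which carries fatty acids in the hepatocyte cytosol, 3.08-fold (adjusted p = 0.013). The 1 gene that fell was Ucp2, an uncoupling protein (down 2.49-fold, adjusted p = 0.00854). Cyp4a10, a fatty acid hydroxylase, was at 6.58, 181, 453 and 307 CPM in KO and 1637, 1055, 1137 and 1650.3 CPM in KO_drug. The groups did not overlap, but KO 2 was far below the other KO libraries, and the adjusted p was 0.0907. The number that rose was 6 without KO 4, 7 without KO_drug 3 and 7 without KO_drug 4, and it was 5 against KO 5 and KO 6 alone. Under total-count scaling 7 of the list rose and 1 fell, and its median became 0.34.

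Cytochrome P450s of drug metabolism rose in 14 of 21 tested members (22 listed) and fell in none, with a median of 1.30. Cyp2c29 was at 67.3, 118, 334 and 178 CPM in KO and 3684, 2195, 4716 and 4651 CPM in KO_drug (21.9-fold, log2 difference 4.45, SE 0.52, adjusted p = 0.00277). Other members of the crowded Cyp2c cluster rose too, Cyp2c54 8.56-fold, Cyp2c50 5.87-fold and Cyp2c37 4.36-fold (adjusted p = 0.00296, 0.0038 and 0.00165). Reads of such close copies may have been split between them. Cyp3a11, a target of PXR, rose 3.14-fold (adjusted p = 0.00209), Cyp3a25 2.86-fold (adjusted p = 0.0027) and the pericentral Cyp2e1 2.40-fold (adjusted p = 0.00783). Cyp2b10, a target of the receptor CAR, was at 49.0, 45.5, 34.7 and 59.9 CPM in KO and 186, 40.7, 242 and 196 CPM in KO_drug (3.52-fold, adjusted p = 0.0303). Por, the P450 reductase, was at 179, 256, 189.9 and 253 CPM and 785, 223, 547 and 690.1 CPM (2.56-fold, adjusted p = 0.026). In both, KO_drug 2 lay in the KO range and the other 3 KO_drug libraries above it. Under total-count scaling 13 of the list rose, 9 without KO 4, and 6 against KO 5 and KO 6 alone.

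Amino acid breakdown and the urea cycle rose in 11 of 29 members and fell in none (median 0.50). Hpd and Haao, of tyrosine and tryptophan breakdown, rose 2.56-fold and 2.64-fold (adjusted p = 0.0036 and 0.00355), and Prodh, of proline breakdown, 2.26-fold (adjusted p = 0.0027). Cps1, the entry enzyme of the urea cycle, was at 3159, 1962, 2833 and 2951 CPM in KO and 4650.3, 5844, 5372 and 4863 CPM in KO_drug (1.90-fold, adjusted p = 0.0115), and Arg1 rose 1.77-fold (adjusted p = 0.0163). Ahcy, the hydrolase of S-adenosylhomocysteine, which copper is known to inhibit, was at 492, 471, 628 and 734 CPM in KO and 1251, 1120.0, 1553 and 1434 CPM in KO_drug, without overlap (2.30-fold, log2 difference 1.20, SE 0.18, adjusted p = 0.00496). Under total-count scaling 8 of the list rose and 1 fell, and 6 rose against KO 5 and KO 6 alone. Of 14 zonation genes 5 rose (35.7%, beside 8.17% of all genes) and 2 fell (14.3%, beside 10.2%). Tbx3, a pericentral factor, rose 2.99-fold (adjusted p = 0.00265), while the pericentral ammonia channel Rhbg and the pericentral Lect2 fell 2.97-fold and 1.88-fold (adjusted p = 0.00561 and 0.00988). Of the zonation genes 3 rose and 3 fell against KO 2 and KO 4 alone, 3 rose and 1 fell against KO 5 and KO 6 alone, and 3 rose without KO 6, KO_drug 2, KO_drug 3 or KO_drug 4.

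Oxidative phosphorylation genes moved by small and even steps. All 25 subunits tested had a positive fitted difference, 20 rose, and the median was 0.48. Cox5a of complex IV was at 67.3, 77.3, 65.0 and 81.0 CPM in KO and 119, 122, 127 and 115 CPM in KO_drug (1.66-fold, log2 difference 0.73, SE 0.11, adjusted p = 0.00433), and Sdhb of complex II and Ndufb8 of complex I rose 1.81-fold and 1.78-fold (adjusted p = 0.0046 and 0.00706). This count was fragile: 5 rose under total-count scaling, 8 without KO 2, 9 without KO 4, 13 without KO 5, 11 without KO_drug 2, 6 without KO_drug 3, and 3 against KO 5 and KO 6 alone. Cytosolic ribosome genes gave none called of 20 by edgeR's test (6 at an unadjusted p under 0.05, all 20 fitted positive, median 0.27) and the proteasome gave 1 of 23, Psmd11 (1.36-fold, adjusted p = 0.034, median of the list 0.25), which became 6 against KO 2 and KO 4 alone and none against KO 5 and KO 6 alone. Both medians turned negative, to -0.07 and -0.09, under total-count scaling.

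Of 20 hepatocyte identity genes 3 rose (15%, beside 8.17% of all genes, median 0.30) and none fell: the factors Foxa2 (1.74-fold, adjusted p = 0.0177), Prox1 (1.41-fold, adjusted p = 0.0329) and the receptor gene Nr1i2 already named. Alb, serum albumin, was at 22048, 20703, 38093 and 42248 CPM in KO and 48995, 48818, 52072 and 35042 CPM in KO_drug (log2 difference 0.59, SE 0.28, adjusted p = 0.168), with KO 5 and KO 6 above KO 2 and KO 4. By total-count scaling none of the 20 rose and 6 fell (median -0.03), beside 30.7% of all genes lower by that scaling. Without KO 4, KO_drug 3 or KO_drug 4, 1 rose, while 5 rose without KO_drug 1. Against KO 5 and KO 6 alone none rose and 1 fell, and against KO 2 and KO 4 alone 3 rose, none of them among the 3 above. In glucose metabolism 3 of 21 genes rose (14.3%, beside 8.17% of all genes) and 5 fell (23.8%, beside 10.2%). The median was 0.09, which became -0.24 by total-count scaling. The liver form Pfkfb1 rose (1.74-fold, adjusted p = 0.00407). The forms typical of other tissues and of growing cells, Hk2, Pkm and Pfkp, fell 3.31-fold, 2.23-fold and 2.73-fold (adjusted p = 0.0361, 0.0131 and 0.00673). Without KO 2, KO 4, KO_drug 2, KO_drug 3 or KO_drug 4, 2 fell, and without KO 2 or KO 4, 1 rose. Against KO 2 and KO 4 alone 1 rose and 5 fell, and against KO 5 and KO 6 alone 1 rose and none fell.

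Of 22 copper and metal handling genes 3 rose (13.6%, beside 8.17% of all genes) and none fell (median 0.08, which became -0.25 with 1 higher and 4 lower by total-count scaling). All 3 serve cytosolic or mitochondrial copper proteins: Ccs, the chaperone for superoxide dismutase, was at 86.4, 81.7, 83.1 and 77.8 CPM in KO and 119, 122, 124 and 121 CPM in KO_drug, without overlap (1.48-fold, log2 difference 0.56, SE 0.09, adjusted p = 0.00589). Sod1 itself rose 1.48-fold (adjusted p = 0.015) and Sco2, an assembly factor of cytochrome oxidase, 2.04-fold (adjusted p = 0.0112). The metallothioneins, which bind copper and zinc, did not pass. Mt1 was at 1556, 1919.7, 2612 and 2568 CPM in KO and 3749, 3085, 2779 and 2484 CPM in KO_drug (log2 difference 0.48, SE 0.21, adjusted p = 0.135), with KO 5 and KO 6 inside the KO_drug range, and Mt2 had an adjusted p of 0.163. Cp, ceruloplasmin, was at 4468, 3064, 2238 and 2035 CPM in KO and 1719, 1959, 1833 and 1638 CPM in KO_drug, lower without overlap but with an adjusted p of 0.0632. Without KO 5 or KO_drug 1, 1 copper gene fell, and 2 without KO 6. Against KO 2 and KO 4 alone 4 rose and 2 fell, and against KO 5 and KO 6 alone 1 rose and none fell. Of 21 NRF2 targets, genes of the oxidant response, 2 fell (9.5%, no more than the 10.2% of all genes). These were Cbr3 (down 2.72-fold, adjusted p = 0.0287) and Slc7a11, the cystine transporter. Slc7a11 was at 3.43, 7.46, 4.62 and 6.31 CPM in KO and at 0 in KO_drug 1, 2 and 3 with 0.229 CPM in KO_drug 4 (adjusted p = 0.00248). By total-count scaling 7 of the 21 NRF2 targets fell, beside 30.7% of all genes by that scaling. Against KO 5 and KO 6 alone 1 fell. Without KO 2, KO 4, KO_drug 2, KO_drug 3 or KO_drug 4, 1 fell, and 1 rose without KO 5 and 2 without KO_drug 2.

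Immune gene lists had negative medians in KO_drug, and their levels also differed among the KO livers. In whole liver, fewer cells of a type and less RNA per cell cannot be told apart. The mean log2 CPM of 19 genes of recruited and lipid-associated macrophages was 3.53, 3.74, 2.59 and 2.41 in KO 2, 4, 5 and 6 and 1.33, 0.32, -0.14 and 0.29 in KO_drug 1 to 4. KO 2 and KO 4 were highest, KO 5 and KO 6 lay between, and the KO_drug libraries were lowest. Of the 19 genes 15 fell and none rose, with a median of -2.11. Itgax, the integrin CD11c, was at 8.50, 9.39, 2.71 and 2.42 CPM in KO and 0, 0, 0.120 and 0.287 CPM in KO_drug (adjusted p = 0.00509). Ctss, a lysosomal protease of antigen-presenting cells, fell 3.95-fold (adjusted p = 0.0104), and Ccr2, the chemokine receptor of monocytes, was at 32.9, 45.6, 9.31 and 4.53 CPM in KO and 3.99, 1.63, 0.781 and 2.29 CPM in KO_drug (10.5-fold, adjusted p = 0.0236). Gpnmb, a marker of lipid-associated macrophages, fell 8.49-fold (adjusted p = 0.0175), and Cd83 2.90-fold (adjusted p = 0.0105). Without KO_drug 4, 8 of the 19 fell, and 14 fell against KO 2 and KO 4 alone, but 2 against KO 5 and KO 6 alone.

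Resident Kupffer cell genes had a smaller median fall. Of 18 members 9 fell and none rose (median -1.29), and all 18 had a negative fitted difference. Csf1r, the growth factor receptor of macrophages, was at 246, 181, 134 and 137 CPM in KO and 76.1, 70.3, 42.6 and 60.6 CPM in KO_drug (2.79-fold, log2 difference -1.48, SE 0.24, adjusted p = 0.00642). Vsig4, a complement receptor, fell 2.25-fold (adjusted p = 0.00706), Cd68 3.10-fold (adjusted p = 0.0046), C1qa 3.24-fold (adjusted p = 0.0102) and Adgre1, which encodes F4/80, 2.77-fold (adjusted p = 0.0489). Clec4f, a lectin found on Kupffer cells alone in mouse liver, was at 236, 165, 226 and 288 CPM in KO and 205, 124, 139 and 150.0 CPM in KO_drug. Its values overlapped and it did not pass the test (log2 difference -0.56, SE 0.20, adjusted p = 0.0751). Against KO 5 and KO 6 alone 2 of the list fell.

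The other immune lists had the same direction. Of 13 T and NK cell genes tested (17 listed) 8 fell (median -2.31), of 7 B and plasma cell genes (9 listed) 4 fell (median -1.69), and of 10 neutrophil genes (14 listed) 3 fell (median -1.98), with none rising. Levels were low. Cd8a was at 3.72, 3.35, 1.75 and 0.915 CPM in KO and 0.382, 0, 0.240 and 0.516 CPM in KO_drug (adjusted p = 0.0198), and Il2rb fell 3.35-fold (adjusted p = 0.0169). Cd79b of B cells fell 4.74-fold (adjusted p = 0.013) and Blnk 3.22-fold (adjusted p = 0.00378). Of the neutrophil genes Csf3r fell 3.43-fold (adjusted p = 0.0404), Ngp 13.6-fold and Ltf 7.40-fold (adjusted p = 0.0131 and 0.0482). The T and NK count was 1 without KO 2 or KO 4, 5, 2 and 4 without KO_drug 2, 3 and 4, and 0 against KO 5 and KO 6 alone (median -1.46). The neutrophil count was 7 without KO_drug 1, 1 without each of KO 2, KO 4 and the other KO_drug libraries, and 0 against KO 5 and KO 6 alone, where 1 B and plasma cell gene fell.

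Chemokines, cytokines and adhesion genes fell in 15 of 22 tested members (28 listed), with a median of -2.03. Il1b was at 17.2, 21.4, 5.16 and 8.92 CPM in KO and 3.33, 2.41, 2.94 and 3.21 CPM in KO_drug (4.41-fold, log2 difference -2.14, SE 0.41, adjusted p = 0.011). Tnf was at 3.66, 2.18, 0.8288 and 0.457 CPM in KO, 0.218 CPM in KO_drug 1 and 0 in the other KO_drug libraries (adjusted p = 0.0162). Ccl3 was counted 99 times in KO and 2 times in KO_drug, a ratio of levels of 33.4 with an exact 95% interval of 9.002 to 279.5 that covers counting error only. Ccl2, which draws monocytes, was at 15.8, 15.4, 3.47 and 1.60 CPM in KO and 1.97, 0.505, 0.300 and 0.401 CPM in KO_drug (11.2-fold, adjusted p = 0.0294). KO_drug 1 lay above KO 6 there, while Icam1, at 111, 77.4, 34.0 and 27.4 CPM and 15.7, 11.7, 10.6 and 12.1 CPM, separated the groups (4.98-fold, adjusted p = 0.0116). Cxcl14 fell 2.74-fold and Cxcl10 10.5-fold (adjusted p = 0.00991 and 0.0142). The count of 15 was 9 without KO 2, 7 without KO 4, KO_drug 2 or KO_drug 4, 5 without KO_drug 3, and 1 against KO 5 and KO 6 alone.

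Interferon-stimulated genes fell in 12 of 21 members (median -1.47). Ifit1 was at 28.5, 23.7, 12.6 and 11.1 CPM in KO and 5.52, 5.56, 1.80 and 3.78 CPM in KO_drug (4.54-fold, log2 difference -2.18, SE 0.41, adjusted p = 0.0112), and Mx1 and Oasl1, also antiviral, fell 6.29-fold and 2.26-fold (adjusted p = 0.0125 and 0.0105). This count was 4 without KO 2, KO 4, KO_drug 2 or KO_drug 4, 3 without KO_drug 3, and 0 against KO 5 and KO 6 alone. Antigen presentation was steadier. Of 14 members 10 fell and none rose (median -1.72), 8 of them also against KO 5 and KO 6 alone and 11 against KO 2 and KO 4 alone. Cd74, the invariant chain of MHC class II, was at 925, 938, 213 and 237 CPM in KO and 67.4, 71.7, 54.1 and 62.5 CPM in KO_drug (9.05-fold, log2 difference -3.18, SE 0.53, adjusted p = 0.00856). The class II chains H2-Ab1 and H2-Eb1 fell 7.48-fold and 10.2-fold (adjusted p = 0.00585 and 0.0062), H2-DMa 5.41-fold (adjusted p = 0.00492) and Tap2, the peptide transporter of class I, 1.99-fold (adjusted p = 0.00463). For Cd74, KO 5 and KO 6 lay far below KO 2 and KO 4 and still over 2 times the highest KO_drug library.

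**Figure D3:**
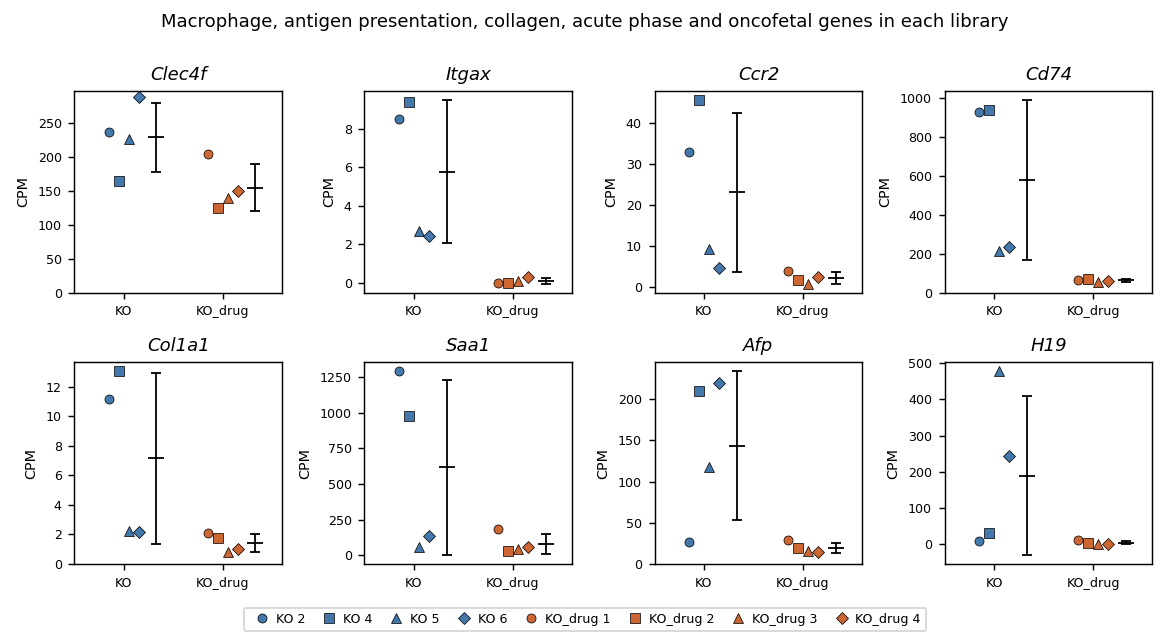
CPM of 8 genes in each library (points) with the mean and SD of each group (bars, n = 4). KO 2 and KO 4 are the highest for Itgax, Ccr2, Cd74, Col1a1 and Saa1, KO 5 and KO 6 are the highest for H19, and the KO_drug values are lowest as a group, with overlap for Clec4f, Saa1, Afp and H19.

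Acute phase proteins, made by hepatocytes under cytokine signals, also differed among the KO livers. Of 24 members 6 fell and none rose (median -0.51). Lcn2, lipocalin 2, was at 2115, 2441, 163 and 270.0 CPM in KO and 106, 10.5, 7.87 and 16.3 CPM in KO_drug (35.5-fold, log2 difference -5.15, SE 1.32, adjusted p = 0.0334). Saa3 was at 250.3, 294, 9.15 and 15.4 CPM and 11.8, 1.63, 2.94 and 5.04 CPM (adjusted p = 0.0413), and Saa1 at 1287, 979, 61.9 and 135 CPM and 185, 33.2, 44.7 and 56.9 CPM, which did not pass (adjusted p = 0.0872). In all 3, KO 2 and KO 4 were the highest of the 8 libraries by a wide step and KO_drug 1 the highest of its group. Orm2 and Steap4 fell 13.2-fold and 3.27-fold (adjusted p = 0.0233 and 0.0269), and Itih3 1.55-fold (adjusted p = 0.0302). The count was 1 without KO 2, 0 without KO 4, KO_drug 2, KO_drug 3 or KO_drug 4, and 0 against KO 5 and KO 6 alone, and 10 against KO 2 and KO 4 alone.

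Matrix genes fell in 12 of 32 tested members (34 listed) and rose in none (median -0.86). Col1a1, the main collagen of scars, was at 11.2, 13.0, 2.20 and 2.15 CPM in KO and 2.08, 1.74, 0.841 and 1.03 CPM in KO_drug. KO 5 and KO 6 lay just above KO_drug 1, and KO 2 and KO 4 far above (4.99-fold, log2 difference -2.32, SE 0.67, adjusted p = 0.0426). Col1a2 and Col3a1 fell 3.53-fold and 4.13-fold (adjusted p = 0.0134 and 0.0302), and Timp1, an inhibitor of matrix proteases, 9.96-fold (adjusted p = 0.0321). Mmp14 was steadier among KO livers, at 41.5, 46.8, 33.5 and 32.6 CPM in KO and 17.4, 16.8, 19.2 and 15.6 CPM in KO_drug (2.24-fold, log2 difference -1.16, SE 0.14, adjusted p = 0.0027). Thbs1 and Lum fell 4.05-fold and 2.72-fold (adjusted p = 0.0112 and 0.00884). The count was 7 without KO 2, KO 4, KO_drug 3 or KO_drug 4, 21 against KO 2 and KO 4 alone and 2 against KO 5 and KO 6 alone.

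Stellate cells, the liver's matrix producers, had 5 of 15 tested markers lower (17 listed, median -0.85), among them Pdgfra, Pdgfrb and Cygb, which fell 1.90-fold, 2.02-fold and 2.23-fold (adjusted p = 0.0137, 0.0206 and 0.0144). Of 17 cholangiocyte and ductular genes tested (19 listed) 4 fell (23.5%, beside 10.2% of all genes, median -1.53). Spp1, osteopontin, was at 75.3, 137, 49.9 and 72.4 CPM in KO and 22.01, 25.8, 23.9 and 16.3 CPM in KO_drug (3.79-fold, log2 difference -1.92, SE 0.29, adjusted p = 0.00603), and Bicc1 and Cldn4 fell 2.997-fold and 6.79-fold (adjusted p = 0.0172 and 0.0295). Endothelial genes had 2 lower of 23 (8.7%, no more than the 10.2% of all genes, median -0.12). These were Tek and Flt4 (down 1.59-fold and 1.51-fold, adjusted p = 0.024 and 0.0265). The stellate count was 3 without KO 2 or KO_drug 3, 2 without KO 4 or KO_drug 4, and 0 against KO 5 and KO 6 alone. The ductular count was 2 without KO 4, KO 6, KO_drug 2 or KO_drug 4, 1 without KO_drug 3, 2 against KO 2 and KO 4 alone and 1 against KO 5 and KO 6 alone, and the endothelial count was 1 without KO 6 or KO_drug 2 and 0 without KO_drug 3 or KO_drug 4.

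**Figure D4:**
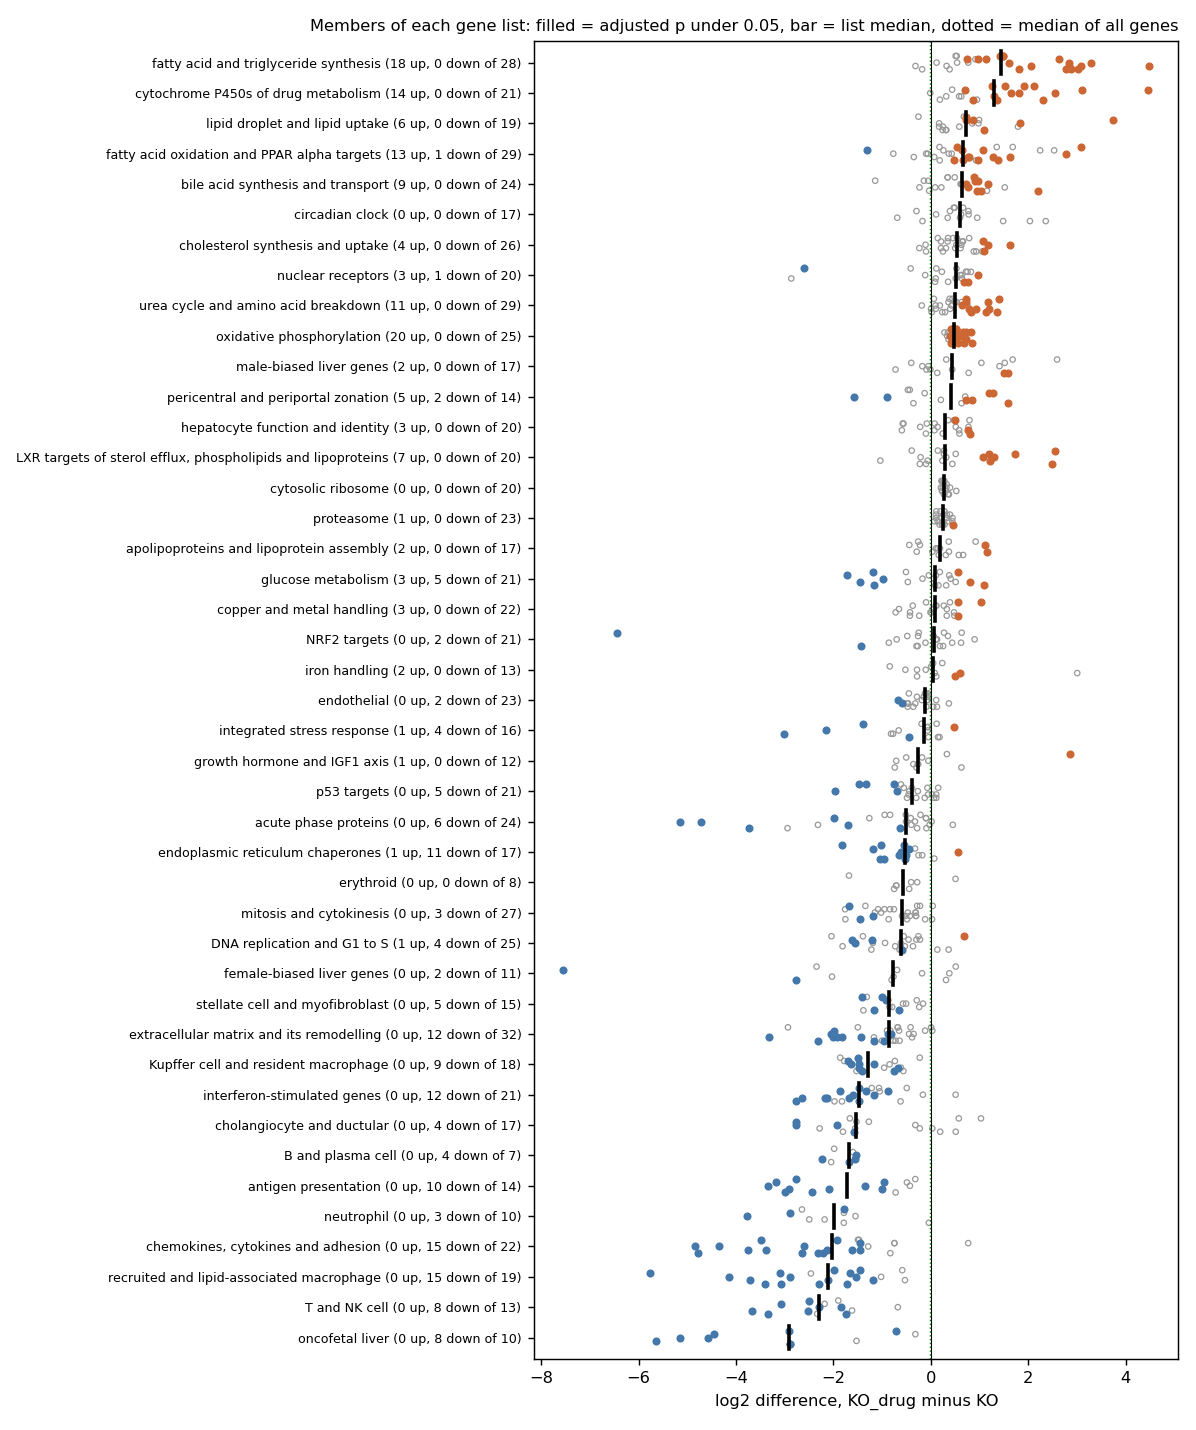
Fitted log2 difference (KO_drug minus KO) of each member of 43 gene lists that had at least 7 tested members, with called members filled, the median as a bar and the median of all genes as a dotted line. Lipid synthesis and P450 lists have their medians farthest to the right, and the oncofetal, lymphocyte, macrophage and chemokine lists farthest to the left.

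Genes of protein folding in the endoplasmic reticulum fell. Of 17 members 11 fell and 1 rose (median -0.53), and 11 were lower without overlap, beside 13.2% of all genes. Hspa5, the chaperone BiP, was at 1203, 753, 1191 and 885 CPM in KO and 463, 569.6, 498 and 547 CPM in KO_drug (1.94-fold, log2 difference -0.96, SE 0.18, adjusted p = 0.00954). Hyou1, its partner, was at 268, 197, 239 and 253 CPM and 102, 130.5, 88.1 and 142 CPM (2.07-fold, log2 difference -1.05, SE 0.17, adjusted p = 0.00634). Manf and Sdf2l1 fell 2.04-fold and 3.56-fold (adjusted p = 0.00826 and 0.0117). The 1 member that rose was Edem1, of protein disposal (1.48-fold, adjusted p = 0.0458), a call lost without any 1 of the libraries other than KO_drug 2. Against KO 5 and KO 6 alone 5 fell, and 7 against KO 2 and KO 4 alone, with none higher in either. In the integrated stress response 4 of 16 tested genes fell and 1 rose (18 listed, median -0.13). Nupr1 fell 4.42-fold, Psat1 8.03-fold and Slc3a2, the partner of Slc7a11, 1.36-fold (adjusted p = 0.00991, 0.0329 and 0.0292). That count of falls was 1 without KO 2, KO_drug 2, KO_drug 3 or KO_drug 4 and 2 without KO 4 or KO 6, and the rise was lost without any library but KO 5. No gene of that list rose or fell against KO 5 and KO 6 alone.

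The mean level of both proliferation lists was lowest in KO_drug 2, 3 and 4, and that of KO_drug 1 lay within the KO range. Of 27 mitosis genes 3 fell (11.1%, median -0.59), and of 25 genes of DNA replication and G1 to S 4 fell (16.0%) and 1 rose (median -0.62), beside 10.2% lower over all genes. Against KO 2 and KO 4 alone none of either list fell, and against KO 5 and KO 6 alone 1 mitosis gene fell and no replication gene rose or fell. Mki67, the usual proliferation marker, was at 26.2, 25.1, 35.1 and 24.3 CPM in KO and 23.2, 3.70, 1.92 and 3.90 CPM in KO_drug (log2 difference -1.75, SE 0.69, adjusted p = 0.113). KO_drug 1 lay just under the KO range and the other 3 far below it, and KO_drug 1 was also below every KO library for Foxm1, Top2a and Mcm4. The mean log2 CPM of the mitosis list was 3.35, 3.52, 4.20 and 3.92 in KO and 3.77, 2.44, 2.49 and 2.83 in KO_drug 1 to 4. Without KO_drug 1, 15 mitosis genes and 14 replication genes fell. Without KO_drug 2, KO_drug 3, KO_drug 4, KO 4 or KO 5, 1 mitosis gene fell, and the replication count was 0 to 2 without each of these or KO 6. Top2a, Foxm1 and Ccna2 fell 2.29-fold, 2.74-fold and 3.22-fold (adjusted p = 0.0274, 0.0132 and 0.0463), and of the replication genes Mcm4 and Ccnd1 fell 2.94-fold and 2.32-fold (adjusted p = 0.0203 and 0.0261), Pcna 1.499-fold (adjusted p = 0.0497). Tk1, thymidine kinase, rose 1.59-fold (adjusted p = 0.0327), a call lost without KO 2, KO 4, KO_drug 2, KO_drug 3 or KO_drug 4.

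Of 21 p53 targets tested (23 listed) 5 fell (23.8%, beside 10.2% of all genes) and none rose (median -0.39). Sesn2 was at 18.2, 16.3, 16.4 and 16.2 CPM in KO and 9.01, 11.1, 10.1 and 11.1 CPM in KO_drug (1.63-fold, log2 difference -0.70, SE 0.12, adjusted p = 0.00826). Phlda3 and Tnfrsf10b, of p53-driven death, fell 2.78-fold and 2.52-fold (adjusted p = 0.0134 and 0.0129). Cdkn1a, which encodes the cell cycle inhibitor p21, was at 57.2, 87.8, 50.02 and 72.6 CPM in KO and 49.2, 6.90, 88.9 and 45.7 CPM in KO_drug (log2 difference -0.49, SE 0.59, adjusted p = 0.598). Its KO_drug values spanned the whole KO range, with KO_drug 2 the lowest and KO_drug 3 the highest of the 8. The count of falls was 3 without KO 4 or KO_drug 3, and 0 against KO 5 and KO 6 alone.

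Oncofetal genes, silent in most adult hepatocytes, had the lowest median of the lists (-2.90), and 8 of 10 tested members fell (11 listed). Golm1, a Golgi protein, was at 31.5, 57.9, 57.9 and 52.7 CPM in KO and 12.9, 4.94, 3.66 and 5.44 CPM in KO_drug, without overlap (7.38-fold, log2 difference -2.88, SE 0.40, adjusted p = 0.0044). Afp, alpha-fetoprotein, was at 26.5, 209, 118 and 219 CPM in KO and 28.5, 18.9, 15.7 and 14.0 CPM in KO_drug, and KO 2 lay inside the KO_drug range (7.42-fold, log2 difference -2.89, SE 0.60, adjusted p = 0.016). H19 was at 8.08, 29.6, 477 and 242 CPM in KO and 10.9, 2.64, 0.661 and 0.802 CPM in KO_drug (log2 difference -5.64, SE 1.51, adjusted p = 0.0383), and Igf2, its imprinted neighbour, at 1.41, 4.52, 24.7 and 18.4 CPM and 0.874, 0.337, 0.481 and 0.344 CPM (log2 difference -4.57, SE 0.93, adjusted p = 0.014). Gpc3 was at 4.20, 24.9, 78.4 and 60.3 CPM and 4.53, 1.07, 0.721 and 1.20 CPM (log2 difference -4.46, SE 0.98, adjusted p = 0.0208). For H19, Igf2 and Gpc3, KO 5 and KO 6 were the highest of the 8 libraries, KO 4 was between, and KO 2 was near or within the KO_drug values. Igf2bp3 was counted 177 times in KO and 3 times in KO_drug, a ratio of levels of 39.8 with an exact 95% interval of 13.4 to 194.8 that covers counting error only. The count of 8 was 4 without KO_drug 2, 3 without KO_drug 3 and 5 without KO_drug 4, 5 against KO 2 and KO 4 alone and 7 against KO 5 and KO 6 alone.

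The levels of sex-biased liver genes differed among the KO libraries, and only in part with the sex-linked RNA. The mean log2 CPM of 11 tested female-biased genes (18 listed) was 1.86, 3.49, 5.61 and 4.67 in KO 2, 4, 5 and 6 and 3.70, 2.88, 2.13 and 2.87 in KO_drug 1 to 4. KO 5 and KO 6, which carried Xist, were the highest. Cyp3a41a, a female-specific P450, was at 1.41, 20.7, 1407 and 344 CPM in KO and 3.50, 2.13, 1.92 and 1.89 CPM in KO_drug (adjusted p = 0.0347), with KO 2 below every KO_drug library. Prom1, which the ductular list also holds, fell 6.83-fold (adjusted p = 0.0329). Neither call stood without KO 5, KO 6, KO_drug 2, KO_drug 3 or KO_drug 4, and 1 stood without KO 4 or KO_drug 1. Against KO 2 and KO 4 alone none of the 11 fell and 2 rose, and against KO 5 and KO 6 alone 1 fell. Of 17 male-biased genes 2 rose (11.8%, beside 8.17% of all genes). These were Cyp4a12b, 2.98-fold, and Mup7, 2.84-fold (adjusted p = 0.00561 and 0.0479), with KO 5 the lowest of the 8 for both. Without KO 2, KO 4, KO_drug 2, KO_drug 3 or KO_drug 4, 1 male-biased gene rose. Against KO 5 and KO 6 alone 1 male-biased gene rose and 1 fell. The mean log2 CPM of the male-biased list was 7.49, 6.96, 5.91 and 7.43 in KO 2, 4, 5 and 6. In KO_drug 1 to 4 it was 6.79, 8.185, 7.86 and 7.64. KO 5 was the lowest of the 8, while KO 6, which also carried Xist, lay above KO 4. The Mup genes together took 0.716% to 2.08% of the counts in KO, lowest in KO 5, and 2.07% to 4.53% in KO_drug.

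**Figure D5:**
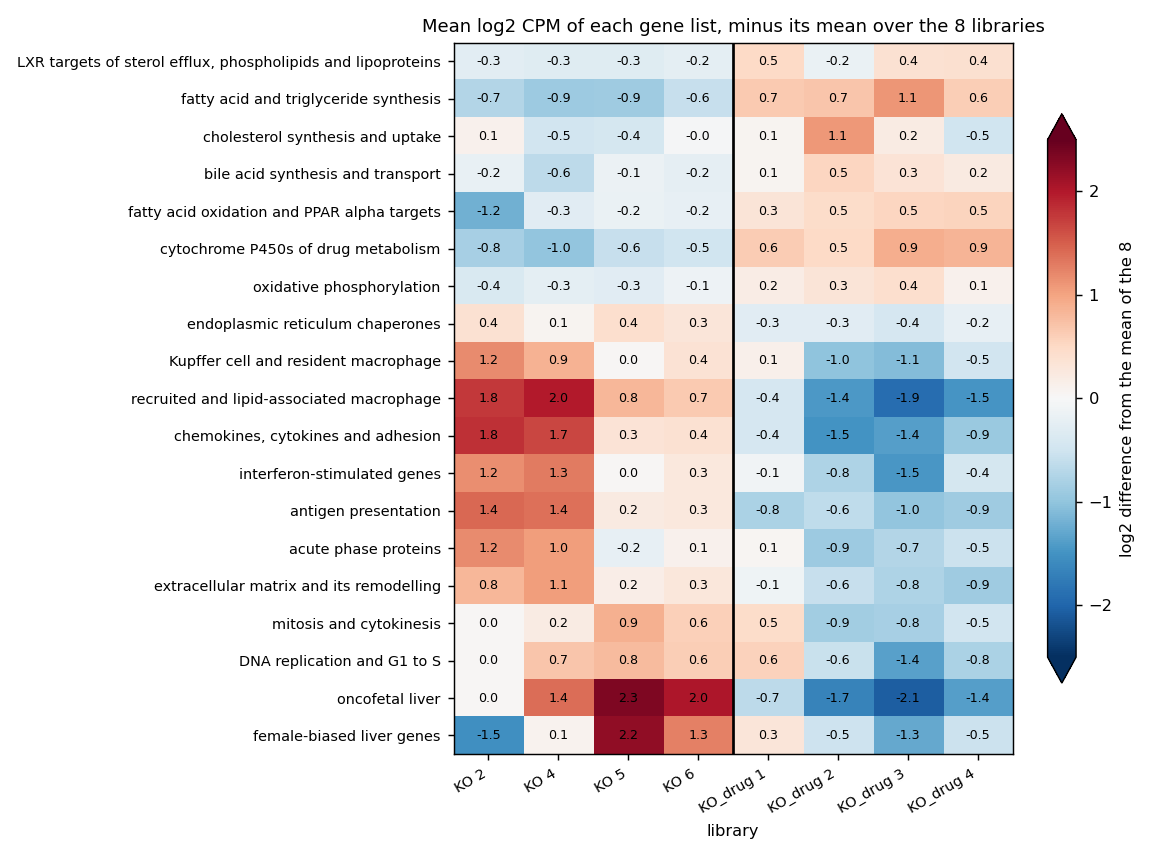
Mean log2 CPM of 19 gene lists in each library, each minus its mean over the 8 libraries (colour and printed value). The fatty acid synthesis, fatty acid oxidation and P450 lists are higher in all 4 KO_drug libraries, the immune lists are highest in KO 2 and KO 4 (KO_drug 1 lies above KO 5 for the Kupffer cell and acute phase lists), the proliferation lists place KO_drug 1 within the KO range, and the oncofetal and female-biased lists peak in KO 5 and KO 6.

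Some single genes moved farther than most of those above. Inmt, an indolethylamine methyltransferase, had the largest fitted rise among the named genes. It was at 10.3, 11.98, 14.1 and 11.7 CPM in KO and 612, 576, 1403 and 1050.0 CPM in KO_drug (75.7-fold, log2 difference 6.24, SE 0.35, adjusted p = 0.000128, gene ID 21743, chr6:55170627-55174990), and it had the smallest adjusted p of all 13386 genes. Igfbp2, a binding protein of insulin-like growth factors, was at 79.4, 51.7, 120.1 and 102 CPM in KO and 748, 553, 646 and 629 CPM in KO_drug (7.30-fold, log2 difference 2.87, SE 0.25, adjusted p = 0.001), the 1 gene of 12 in the growth hormone and IGF1 list that rose (1 other fell against KO 2 and KO 4 alone). Slc2a4, the insulin-responsive glucose transporter of muscle and fat, was at 0.257, 0, 0.159 and 0 CPM in KO and 7.65, 0.561, 7.33 and 2.98 CPM in KO_drug (log2 difference 5.22, SE 1.00, adjusted p = 0.0116), a low level in both. Pnpla5, a lipase relative counted with fatty acid synthesis above, was at 0.0962, 0.305, 0.383 and 0.686 CPM and 3.004, 2.86, 5.41 and 3.04 CPM (9.82-fold, adjusted p = 0.00496). Gngt1 and Meig1 also rose from near 0, to 2.04 ± 0.534 CPM and 1.16 ± 0.605 CPM.

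At the other end, 21 genes with 10 or more counts in each KO library had no count in any KO_drug library, and none showed the reverse. With 1 or more counts in each of the 4 the numbers were 228 and 1. The KO libraries were larger together, in counts and more so in TMM-scaled size. On the scaled sizes, 3 counts over the 4 libraries were 0.0288 CPM in KO and 0.0427 CPM in KO_drug. Ogdhl, a relative of oxoglutarate dehydrogenase, was at 0.898, 0.711, 7.01 and 3.57 CPM in KO and at 0 in KO_drug, at least 76.4-fold lower against a floor of 3 counts over the 4 KO_drug libraries (0.0427 CPM). Duox2, an oxidase that makes hydrogen peroxide, was at 1.92, 2.94, 0.765 and 1.28 CPM in KO (at least 38.2-fold lower), and Cdh17, a cadherin of gut and bile duct, at 0.545, 1.93, 0.988 and 1.01 CPM (at least 24.3-fold lower). Asb11, Rab44, Acsm4, Kif5c and Corin were at least 30.4-fold, 28.3-fold, 23.4-fold, 23.2-fold and 22.7-fold lower. All 8 were called by edgeR (adjusted p of 0.00679 to 0.0195). With no count in KO_drug they met the limit on counts through the KO libraries alone, so these calls are no separate support. These are levels of 0.385 to 7.01 CPM in KO, so a low level in KO_drug, of up to the floor, was not detectable at this depth. Dnaic1, of ciliary motors, was at 2.57, 2.28, 8.70 and 7.50 CPM in KO and Ccr3, an eosinophil chemokine receptor, at 2.69, 1.42, 9.47 and 2.56 CPM, and 1 KO_drug library carried counts of each (adjusted p = 0.0058 and 0.00823). Dnaic1, Ccr3, Slc7a11, Itgax, Tnf, Ccl3, Igf2bp3 and Ngp each had under 10 counts over the 4 KO_drug libraries together. They too met the limit on counts through the KO libraries alone, and their calls are no separate support.

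Of the other lists, iron handling had 2 of 13 higher (15.4%, beside 8.17% of all genes). These were Ftl1, ferritin light chain (1.41-fold, adjusted p = 0.038), and Ireb2 (1.51-fold, adjusted p = 0.0484). At most 1 iron gene was higher with any 1 library left out, and 2 were lower without KO_drug 3. Against KO 2 and KO 4 alone 1 iron gene was higher, and none against KO 5 and KO 6 alone. The circadian clock had none of 17 called by edgeR (3 at an unadjusted p under 0.05, median 0.60, up to 3 higher without 1 library and 1 higher against KO 2 and KO 4 alone), and erythroid genes had none of 8 (1 at an unadjusted p under 0.05, 10 listed, median -0.58). DESeq2 called 3 ribosome, 3 clock and 1 erythroid genes. The single tested gene of the 13 of adipocyte, pancreas and muscle did not pass.

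The 200 genes named or tabulated were picked mostly by small adjusted p, large change or after their values were seen. Staying called was thus partly built into the choice. Over all 2458 called genes, 1100 stayed called without KO_drug 3 alone. Of the 200, 180 were called, and 125 of these (65 of 83 higher, 60 of 97 lower) stayed called by edgeR without each of the 8 libraries in turn. A set of 72 also stayed called against KO 2 and KO 4 alone, against KO 5 and KO 6 alone and under total-count scaling. On the higher side it held Inmt, Scd1, Fasn, Acaca, Acacb, Elovl5, Elovl6, Me1, Gpam, Thrsp, Mlxipl, Lpcat3, Cyp7a1, Cyp27a1, Abcb11, Acaa1b, Ehhadh, Cyp2c29, Cyp3a11, Cps1, Ahcy and Igfbp2. On the lower side it held Cd74, H2-Ab1, H2-Eb1, Csf1r, Cd68, Ctss, Itgax, Icam1, Mmp14, Spp1, Hspa5, Hyou1, Slc7a11, Golm1 and Igf2. Of these, Itgax and Slc7a11 (7 and 4 counts in KO_drug) met the limit on counts through the KO libraries alone. Abcg5, Abcg8 and Srebf1 stayed called without each library but not against KO 5 and KO 6 alone, and Abca1 lost its call without KO 4, KO_drug 3 or KO_drug 4. Another 38 stayed called in fewer than 4 of the 8 fits. They included Scd3, Rnf145, Insig2, Cyp2b10, Por and Nr1i2 among the rises and Lcn2, Saa3, Orm2, Steap4, Ccr2, Ccl2, Adgre1, Col1a1, Col3a1, Timp1, Top2a, Ccna2, Ccnd1, Pcna, Hk2, H19, Cyp3a41a and Prom1 among the falls.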

How the data were processed

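Whole liver RNA was sequenced with the TruSeq Stranded Total RNA kit after RNeasy extraction, per the labels' protocols. FastQC 0.11.7, StringTie 2.1.3b and build mm10 were used, per the submitters' processing notes, and no source used here names the aligner or the annotation release. The authors deposited 1 table with a raw read count, in whole numbers, and an FPKM (fragments scaled to gene length and library depth) for each gene and library. The FPKM values that the authors deposited served as an alternative, tested with limma 3.58.1 on log2(FPKM + 0.1) and log2(FPKM + 1). In the table, 3 unnamed columns with values for 4 genes were not used.

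The 8 libraries entered 1 edgeR 4.0.16 quasi-likelihood fit (robust, R 4.3.3) with TMM scaling, after keeping genes with 10 or more counts in at least 4 libraries. All tests were two-sided. Benjamini-Hochberg adjustment ran over 13386 genes, and called means an adjusted p under 0.05. Levels are CPM on TMM-scaled sizes, as mean ± SD over 4 libraries. A fold is the fitted fold, and a group at 0 is set at 3 counts over its 4 libraries. Counts were simulated for these 13386 genes, with 100 changed 2-fold and 100 changed 4-fold, as many up as down, and independent noise. They gave calls for 51% of 2-fold and 86% of 4-fold changes, with 4.2% of calls false. The data have more called genes, larger falls than rises and differences among the KO livers, so these rates need not hold for them. Exact permutation of 4 against 4 values cannot give a two-sided p under 0.0286.

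The comparison, the 44 gene lists (880 members) and the rule for named genes were chosen with earlier results of these data known. The rule takes 16 genes always (Xist did not pass the filter), the 12 largest called rises and falls at 1 CPM or more without overlap, and the 3 smallest adjusted p of each list, and 60 genes were added after their values were seen, which makes 200. Some of these genes are not reported here. Of these 200, 73 overlap the span of another RefSeq gene and counting by strand is not stated. Positions are from RefSeq on GRCm38.p6, to which 24462 of 24532 genes matched by gene ID. Samples were grouped by title. Nothing states which mice shared a litter or day, so p-values measure the spread between these 8 libraries. Of the replicate numbers, 2 and 4 occur in both groups, and these pairs did not deviate together (r = 0.0918 and 0.0848). Alternatives were DESeq2 1.42.0, voom, other scalings and filters, each library left out, and 2 KO libraries at a time.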

Additional observations from a re-analysis of the deposited data

Results flagged for a closer look

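In 36 of 488 group values (7.38%), 1 of the 4 libraries lay far from the other 3, by a gap that took more of the group's range than Dixon's 95% value for 4 samples, and chance alone gives about 1 in 20. KO_drug 1 stood above the rest of its group in 10 genes, of proliferation and inflammation among others. Its Mki67 was at 23.2 CPM against 1.92 to 3.90, Ccna2 at 4.86 against 1.02 to 1.15, Lcn2 at 106 against 7.87 to 16.3, Saa1 at 185 against 33.2 to 56.9, Ccl2 at 1.97 against 0.300 to 0.505, and Pkm at 32.2 against 20.5 to 20.7. Its Gpc3 was at 4.53 against 0.721 to 1.20, Cyp3a41a at 3.496 against 1.89 to 2.13, and Tnf (0.218 CPM) and Dnaic1 (0.273 CPM) were at 0 in the other 3. KO_drug 1 also had the lowest mean log2 CPM of the hepatocyte list, 7.73 against 7.84 to 7.86.

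KO_drug 2 had the lowest Abcg5 (85.2 CPM against 387 to 448), Abcg8 (126 against 562 to 645) and p53 target list (3.94 against 4.57 to 4.64), and the sole Ccr3 of its group (0.225 CPM). KO_drug 3 had the highest fatty acid synthesis list (7.92 against 7.43 to 7.51), nuclear receptor list (4.70 against 4.31 to 4.33) and Pnpla5 (5.41 CPM against 2.86 to 3.04), and the sole Ccl3 (0.120 CPM). KO_drug 4 had the lowest Scd3 (267 CPM against 377 to 385) and Tap2 (19.1 against 22.3 to 22.8), and the sole Slc7a11 (0.229 CPM) and Igf2bp3 (0.172 CPM).

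Among the KO livers, KO 2 had the highest Tap2 (56.3 CPM against 37.8 to 39.98) and Sesn2 (18.2 against 16.2 to 16.4) and the lowest fatty acid oxidation list (6.27 against 7.20 to 7.32). KO 4 had the highest Ltf (3.55 CPM against 1.604 to 1.69), Lum (35.9 against 17.8 to 20.0) and ductular list (3.64 against 2.78 to 2.88), and the lowest bile acid list (6.38 against 6.81 to 6.89). KO 5 had the highest Ccr3 (9.47 CPM against 1.42 to 2.69) and Top2a (52.8 against 36.0 to 37.6), no Scd4 (0 against 0.503 to 0.545), and the lowest zonation list (6.21 against 6.45 to 6.49). KO 6 had the highest Elovl5 (412 CPM against 312 to 318) and Itih3 (965 against 653 to 695).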

How the results depend on the processing

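The main counts were 2458 genes called, 1094 higher, 1364 lower and 1215 at least 2-fold. At an adjusted p under 0.01 they were 484, 260, 224 and 322. Total-count scaling gave 4502, 393, 4109 and 1979, limma on log2(FPKM + 0.1) gave 4820, 386, 4434 and 1967, and limma on log2(FPKM + 1) gave 4649, 375, 4274 and 768. DESeq2 called 3435 (1525 higher, 1910 lower). Against KO 5 and KO 6 alone, an alternative chosen after seeing the data, the counts were 424, 203, 221 and 288. Leaving out 1 library gave 1123 to 2752 called, 507 to 1181 higher, 616 to 1571 lower and 658 to 1502 at least 2-fold. The cause of these shifts was not tested, and the fits with libraries left out also had fewer libraries.

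The numbers 2 and 4 occur in both groups. With these as a replicate block edgeR called 1807 (671 higher, 1136 lower), and with no replicate block on the same 4 libraries, a fit added after seeing the data, 1842 (612 higher, 1230 lower).

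The Atp7b difference (0.0754) turned negative by total-count scaling (-0.247), voom (-0.121), FPKM (-0.286 and -0.0828 with pseudocounts 0.1 and 1) and against KO 5 and KO 6 alone (-0.147), and ran from -0.2265 to 0.2643 with 1 library left out. Mylip turned to -0.0985 by total-count scaling, -0.167 and -0.135 by FPKM, -0.2044 with the replicate block and -0.0342 without it. Hmgcs1 turned to -0.193 by voom and -0.4401 and -0.4267 by FPKM, and ran from -0.6112 (without KO_drug 2) to 0.6585 (without KO_drug 4). Abcg1 was -0.206 with the replicate block and -0.0892 without it, and Nr1h2 (-0.0644) ran from -0.2282 (without KO_drug 1) to 0.0222 (without KO_drug 2), and was 0.0021 without KO_drug 4. Each of these genes was uncalled, and no called gene among the 200 changed sign under any alternative run. DESeq2 kept the direction and the side of the threshold for 193 of the 200, RLE scaling for 199 and total-count scaling for 178.

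Genes under about 1 CPM rest on few counts per library, and absence there was not detectable beyond the floor of 0.0427 CPM in KO_drug.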

Other observations

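The summed CPM of the defining markers of each cell type gives a coarser view than the lists. Recruited macrophage markers summed to 10.5 to 65.2 CPM in KO and 2.88 to 6.23 CPM in KO_drug, the T and NK cell markers to 2.65 to 7.92 and 0.420 to 1.43, and the B and plasma cell markers to 2.74 to 9.11 and 1.15 to 2.24, each without overlap. Stellate cell markers summed to 194.3 to 228 CPM in KO and 132 to 189.99 CPM in KO_drug, close but without overlap. Those of Kupffer cells (774 to 1673 and 366 to 928), neutrophils (12.2 to 78.9 and 9.55 to 31.7), cholangiocytes (6.54 to 18.9 and 5.79 to 10.3), sinusoidal endothelium (202 to 274 and 203 to 272) and erythroid cells (242 to 922 and 261 to 790.1) overlapped between the groups. No other pattern was tested.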
